A study of Mus musculus with 3 samples.

Results

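The MAP kinase cascade genes described here are the protein-coding genes whose name is Map4k, Map3k, Map2k, Mapk or Mapkapk followed directly by a number. The mouse annotation held 46 such genes among 21951 protein-coding genes. A predicted m6A site (N6-methyladenosine, a methylated adenosine inside the RNA) was listed in 21 of them, and 25 had none. Together the 21 genes carried 87 of the 19301 listed sites.

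The sites came from RAW 264.7, an established mouse macrophage cell line, which was grown untreated and profiled in 3 biological replicates. The organism label names the mouse, whereas the design text of the series calls the line human, and all 19301 listed positions were an A in the mouse genome. Poly(A)+ RNA was crosslinked to an antibody against m6A (miCLIP2), and the machine learning model m6Aboost scored the crosslinked adenosines. The authors deposited 1 list pooled over the replicates, with a score but no read counts. Neither the depth behind a site nor how it varied among replicates is known from this list.

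In the cascade, each kinase phosphorylates the next. Map4k proteins can act on Map3k proteins, which phosphorylate Map2k proteins, and these activate the MAP kinases (Mapk) through a threonine and a tyrosine in the activation segment. Mapkapk proteins are kinases that MAP kinases phosphorylate in turn. In macrophages the p38, JNK and ERK branches carry signals from pattern recognition receptors to cytokine production. m6A is written mostly at the motif DRACH (D = A, G or T; R = A or G; H = A, C or T), often in long exons and near the stop codon.

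The following 21-nt windows of the GRCm38 genome surround the highest-scoring site of each gene given in full below. They are written 5′ to 3′ on the strand of the gene, with T for U, and capitals mark the 5 bases centred on the predicted m6A. They are shown because each is the most surely called site of its gene.
Map4k4, 3′ UTR, chr1:40024989-40025009, plus strand: ttgggaatGGACTcagaccgg
Map3k11, 3′ UTR, chr19:5702523-5702543, plus strand: atgcctacAAACTgtagggac
Map3k3, 3′ UTR, chr11:106154957-106154977, plus strand: taggccttGGACTggatggaa
Map3k14, 3′ UTR, chr11:103220290-103220310, minus strand: caaatgatAAACTcaagaaag
Map3k1, CDS, chr13:111755992-111756012, minus strand: ctggaaaaGGACTaagtgcta
Map3k10, CDS, chr7:27673869-27673889, minus strand: ctttcccaGGACTgtgcggtg
Map2k3, 3′ UTR, chr11:60952241-60952261, plus strand: gaatgaatGGACTtcgtacac
Map2k7, 3′ UTR of another transcript of the gene, chr8:4245935-4245955, plus strand: actgccaaGGACTgaggacag
Map2k2, CDS, chr10:81119301-81119321, plus strand: aagctgtgTGACTtcggggtg
Mapk14, 3′ UTR, chr17:28748198-28748218, plus strand: tgttccagGGACTggactcga
Mapk6, CDS, chr9:75398002-75398022, minus strand: gtagacaaTGACTgtgacaaa
Mapk7, CDS, chr11:61491420-61491440, minus strand: gtacttcaTGACTgagtatgt
Mapk9, 3′ UTR, chr11:49883317-49883337, plus strand: ctgtgaagGAACTctcacttc
Mapkapk2, 3′ UTR, chr1:131054466-131054486, minus strand: ggctacagGGACTcctgcttg
All 14 windows read DRACH at their centre, and 8 of the 14 read GGACT. The site in Map2k2 falls on the codon of the aspartate in the DFG motif, which binds magnesium in the active site. The site in Mapk7 falls on the codon of the activating threonine.

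Among all protein-coding genes, 23.1% had at least 1 listed site in their span, and 21 of the 46 cascade genes did (45.7%, 95% Wilson interval 32.2 to 59.8). At least 8 sites were listed in 2.96% of protein-coding genes and in 5 of the 46. A site with a score of at least 0.9 was listed in 6.2% of protein-coding genes and in 9 of the 46. Of these 9, Map2k7 counted through a site that also lies in the span of another gene. The list shows no expression level, so a gene without a site may carry no m6A, be little expressed or fall below the model's threshold, and these cannot be told apart. The cascade genes were chosen by name and not by expression, whereas the background holds every annotated gene. The share of genes with a site is therefore a description, with no test.

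**Figure D1:**
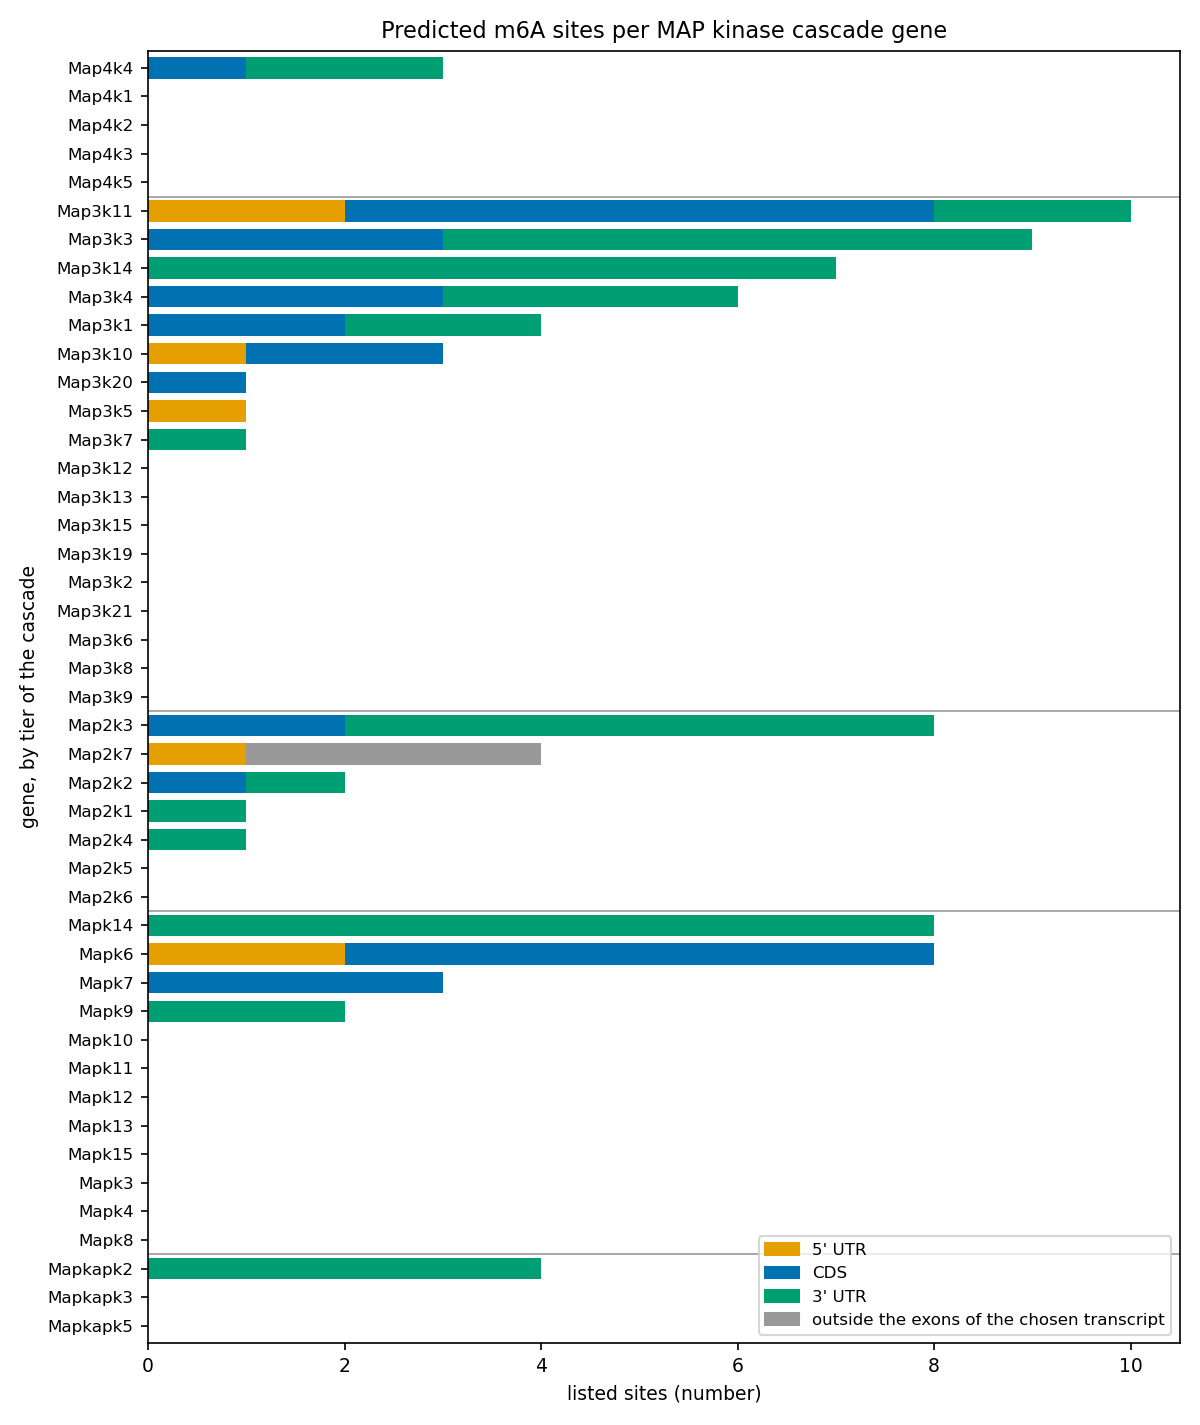
Number of listed sites (x axis) in each of 45 MAP kinase cascade genes (y axis, grouped by tier and ordered by number), with colours for the part of the transcript. The counts run from 0 in 25 genes to 10 in Map3k11, and 4 of 5 Map4k genes and 8 Mapk genes have no bar.

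At the top of the cascade, 1 of the 5 Map4k genes, Map4k4, had listed sites. That is 20% (interval 3.62 to 62.4), beside 23.1% of all protein-coding genes. Map4k4 encodes a kinase of the germinal centre kinase family that acts upstream of JNK. It had 1 site in the CDS with a score of 0.542 and a pair in the 3′ UTR with scores of 0.859 and 0.870. The pair lay 35 nt apart, at 254 and 289 nt after the first base of the stop codon, from which all such distances are counted on the spliced transcript. No site was listed in Map4k1, Map4k2, Map4k3 or Map4k5.

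In the Map3k tier 9 of 18 genes had sites (50%, interval 29.0 to 71.0), beside 23.1% of all protein-coding genes. They held 42 of the 87 sites. The largest number belonged to Map3k11, a mixed-lineage kinase (MLK3) that feeds JNK signalling. Its 10 sites were spread over the transcript, 2 before the start codon, 6 in coding sequence and 2 after the stop codon, and scored from 0.527 to 0.924. Exon 3, which is 1300 nt long and holds the start codon, carried 5 of them, and the last exon carried 4. Among protein-coding genes with a site, 7.38% had 10 or more.

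Map3k3 (MEKK3) had 9 sites, and all 9 lay in its last exon of 1481 nt. Of these, 3 came at positions -86, -49 and -2 from the stop codon, 5 followed between 156 and 341 nt after it, and 1 lay at 775 nt. The scores ran from 0.520 to 0.860, with the highest at the site farthest downstream. The run of 5 sites spanned 186 nt and held more sites than any other run of cascade sites with gaps of at most 100 nt. The last site before the stop codon was at the A of the final sense codon, TAC for tyrosine 626, so that its 5 bases extend into the stop codon. In the window chr11:106154180-106154200 on the plus strand, capitals mark that stop codon and the predicted m6A is the a of the tac before it.
Map3k3 at the stop codon: cagctagtgtacTGAgctctc
The closely related Map3k2 had no listed site, although their proteins were identical at 66.4% of the residues of the shorter one.

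Map3k14 encodes NIK, the kinase that starts non-canonical NF-κB signalling. Its 7 sites all lay in the 3′ UTR. They formed an early group of 3 between 182 and 253 nt after the stop codon, with scores of 0.619, 0.762 and 0.605, and a later group of 4 between 727 and 1102 nt, with scores of 0.935, 0.928, 0.553 and 0.85. The 2 sites above 0.9 were both in the later group.

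Map3k4 and Map3k1 divided their sites between a long internal exon and the last exon. In Map3k4 (MEKK4), which acts in stress signalling to p38 and JNK, exon 3 of 1358 nt carried 3 CDS sites with scores of 0.719, 0.819 and 0.873. The other 3 lay at 78, 112 and 257 nt after the stop codon and scored 0.825, 0.752 and 0.733. In Map3k1 (MEKK1), which combines a kinase with a ubiquitin ligase domain, exon 14 of 1252 nt carried a pair of CDS sites 35 nt apart with scores of 0.902 and 0.866. Its pair in the 3′ UTR was 24 nt apart and scored 0.567 and 0.70. In Map3k1 the CDS pair thus scored above the 3′ UTR pair, whereas in Map3k4 the ranges of the groups overlapped.

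Map3k10 (MLK2), a relative of Map3k11, had 3 sites, all in its first exon of 1256 nt. They lay at -92, 145 and 388 nt from the start codon and scored 0.633, 0.914 and 0.505. Its chosen transcript had an annotated 3′ UTR of 0 nt, and no site was listed elsewhere in the span of the gene. Each of the remaining genes had 1 site. The site of Map3k20 (ZAK), a sensor of stalled ribosomes, was in the CDS at -147 nt from the stop codon and scored 0.690. That of Map3k5 (ASK1), a kinase activated by oxidative stress, was in the 5′ UTR and scored 0.505. The site of Map3k7 (TAK1), which Toll-like and interleukin receptors use to reach both NF-κB and the MAP kinases, was in the 3′ UTR and scored 0.554. No site was listed in Map3k2, Map3k6, Map3k8, Map3k9, Map3k12, Map3k13, Map3k15, Map3k19 or Map3k21. Map3k8 encodes Tpl2, which links Toll-like receptors to ERK in macrophages.

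In the Map2k tier 5 of 7 genes had sites (71.4%, interval 35.9 to 91.8), beside 23.1% of all protein-coding genes. Map2k3, an activator of p38, had 8 sites with scores from 0.585 to 0.955. Its last exon of 1048 nt carried 6 of them, and the other 2 lay in internal exons of 114 and 78 nt. Within the 3′ UTR, 4 sites gathered over 102 nt, at 406, 463, 490 and 507 nt after the stop codon, and scored 0.955, 0.776, 0.910 and 0.720. A further site lay at 5 nt, where the motif follows the stop codon directly. In the window chr11:60951840-60951860 on the plus strand, capitals mark that stop codon, and the predicted m6A is the a of the ggact after it.
Map2k3 at the stop codon: attcaTAGggactggcccagg
Map2k6, the close relative of Map2k3 that also activates p38, had no listed site, and the proteins were identical at 77.8% of the residues of the shorter one.

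Map2k4 and Map2k7 activate JNK, and Map2k4 can activate p38 as well. Map2k7 had 4 sites, of which 1 lay in the 5′ UTR and scored 0.517. The other 3, at chr8:4245945, chr8:4245952 and chr8:4246005, scored 0.933, 0.780 and 0.833 and were outside the exons of the transcript with the longest CDS, whose 3′ UTR is 138 nt. They lay in the 3′ UTR of another protein-coding transcript of Map2k7 and also in the span of Gm49320, a predicted gene on the same strand, so that their gene is uncertain. Map2k4 had 1 site, at 394 nt after the stop codon with a score of 0.726, and its 5 bases were GTACT.

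Map2k1 and Map2k2 encode MEK1 and MEK2, the activators of ERK. Map2k1 had 1 site, at 356 nt after the stop codon, with a score of 0.877. Map2k2 had 1 CDS site with a score of 0.740 and 1 site at 65 nt after the stop codon with a score of 0.634. No site was listed in Map2k5 or Map2k6.

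Of the 13 Mapk genes, 5 had sites (38.5%, interval 17.7 to 64.5), beside 23.1% of all protein-coding genes. In Mapk14 and Mapk6 lay 16 of the 22 sites of the tier. Mapk14 encodes p38α, the main p38 kinase of macrophages. All 8 of its sites lay in the 3′ UTR of 2068 nt. The first was at 63 nt after the stop codon and scored 0.763, 5 were between 902 and 1247 nt and scored from 0.543 to 0.732, and 2 stood at 1872 and 1877 nt. This last pair scored 0.963 and 0.85, above the other 6 sites of the gene.

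Mapk6 encodes ERK3, an atypical MAP kinase. None of its 8 sites was in the 3′ UTR of 1150 nt. Exon 2, which is 1173 nt long and holds the start codon, carried 7 of the 8, at -239, -170, 28, 64, 121, 277 and 340 nt from the start codon. Their scores in this order were 0.742, 0.601, 0.753, 0.798, 0.871, 0.567 and 0.60. The remaining site was in the CDS part of the last exon and scored 0.713. Mapk14 and Mapk6 thus had the same number of sites, all after the stop codon in Mapk14 and 7 of 8 around the start codon in Mapk6.

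Mapk7 encodes ERK5. Its 3 sites were in the CDS, in exons of 1079 and 656 nt, and scored 0.691, 0.667 and 0.545. Mapk9 (JNK2) had sites at 40 and 308 nt after the stop codon with scores of 0.937 and 0.528. No site was listed in Mapk3 (ERK1), Mapk4, Mapk8 (JNK1), Mapk10, Mapk11, Mapk12, Mapk13 or Mapk15. Of the JNK genes Mapk8, Mapk9 and Mapk10, only Mapk9 had a site.

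Mapkapk2 encodes MK2, the substrate of p38 that stabilises Tnf and other cytokine mRNAs in macrophages. Its 4 sites formed pairs in the 3′ UTR. The first pair, at 64 and 72 nt after the stop codon, scored 0.503 and 0.725, and the second, at 618 and 630 nt, scored 0.974 and 0.914. The 0.974 was the highest score of any cascade site. No site was listed in Mapkapk3 or Mapkapk5. The tier thus had sites in 1 of 3 genes (33.3%, interval 6.15 to 79.2), beside 23.1% of all protein-coding genes.

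**Figure D2:**
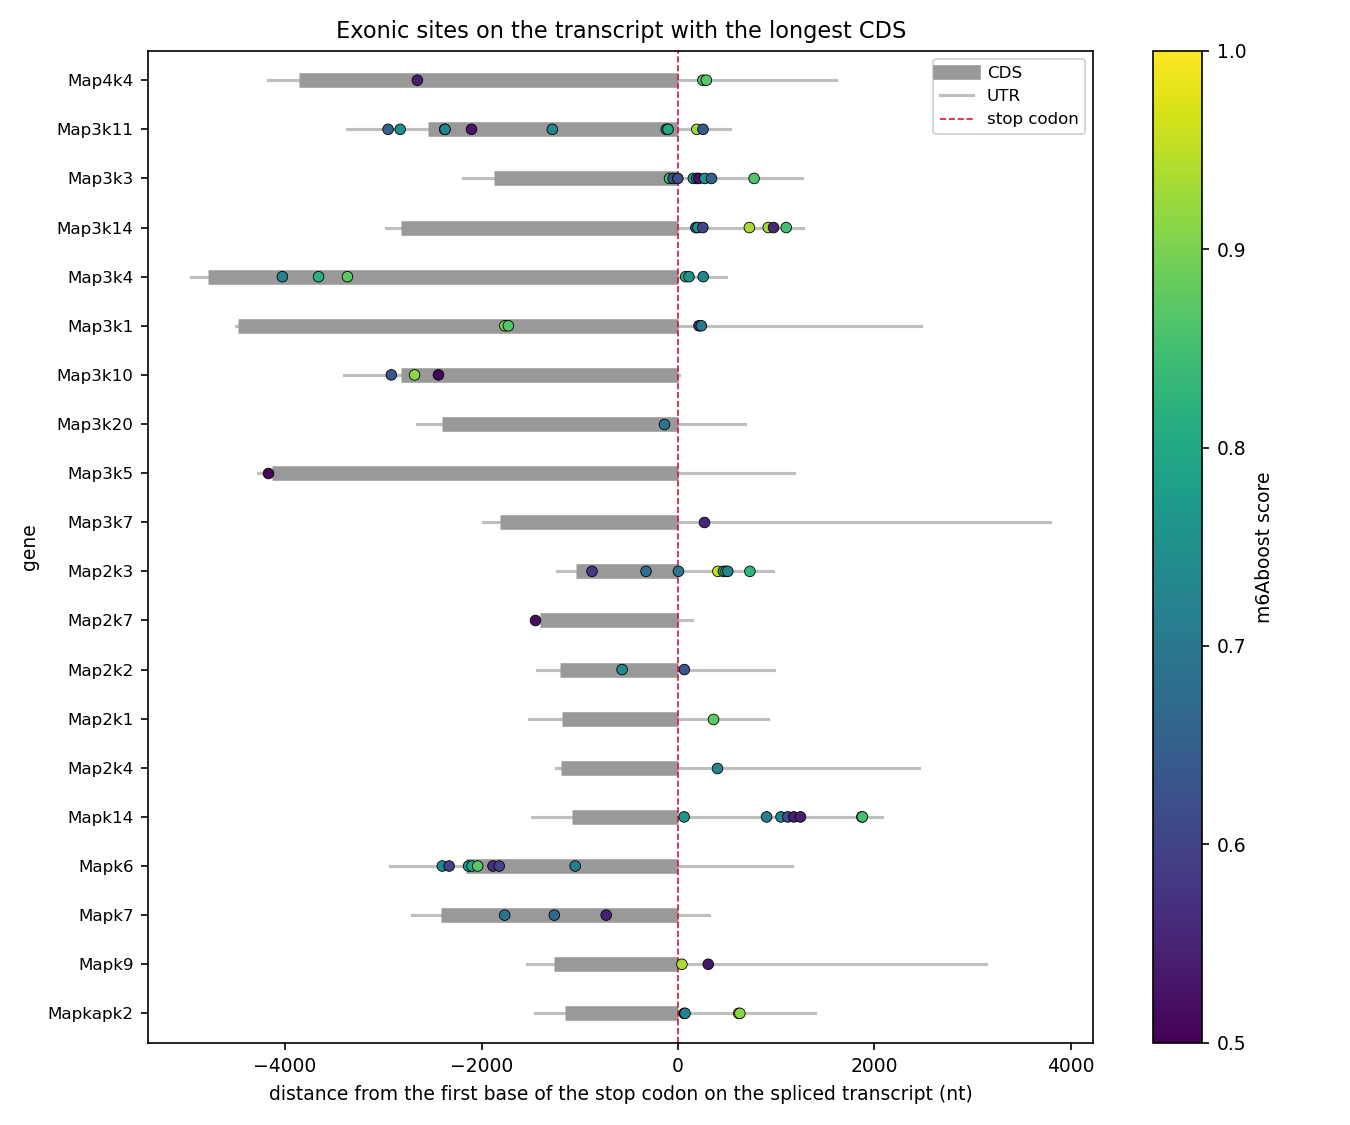
Exonic sites (points, coloured by m6Aboost score) on the spliced transcript with the longest CDS of 20 genes with a site, with distance from the first base of the stop codon in nt on the x axis. Thick bars are the CDS, thin lines the UTRs and the dashed line the stop codon. Map3k3 sites surround the stop codon, Mapk14 sites reach 1877 nt beyond it, and 7 of 8 Mapk6 sites lie at the start of the CDS or before it.

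Some cascade sites were close enough for their motifs to touch or overlap. These windows show the 4 pairs at most 12 nt apart in Mapk14, Map3k11 and Mapkapk2, with the 5 bases of both sites in capitals. A further pair, of uncertain gene, stood 7 nt apart in the 3′ UTR of another transcript of Map2k7.
Mapk14, chr17:28748202-28748219, plus strand, 5 nt apart: ccagGGACTGGACTcgaa
Map3k11, chr19:5690416-5690432, plus strand, 4 nt apart: ggcaGGACGAACTagcc
Mapkapk2, chr1:131055016-131055036, minus strand, 8 nt apart: ttttAGACAaagAGACAcaag
Mapkapk2, chr1:131054458-131054482, minus strand, 12 nt apart: acagGGACTcctgcttGAACTgagc
In Mapk14, both were GGACT and followed each other without a gap. In Map3k11 the first motif, GGACG, is no DRACH and scored 0.633, and it shares a base with the GAACT after it, which scored 0.727. Another site within 100 nt was listed for 48 of the 84 exonic cascade sites (57.1%, interval 46.5 to 67.2), beside 60.0% of exonic sites in all protein-coding genes.

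The 87 sites divided into 7 in 5′ UTRs, 30 in coding sequence, 47 in 3′ UTRs and 3 outside the exons of the chosen transcript. The share in 5′ UTRs was 8.05% (interval 3.95 to 15.7), beside 2.19% of all sites in protein-coding genes. The share in the CDS was 34.5% (25.3 to 44.9), beside 51.3%, and that in 3′ UTRs was 54.0% (43.6 to 64.1), beside 43.2%. The 5′ UTR sites belonged to 5 genes, with 2 each in Map3k11 and Mapk6, so these few genes set the share. Sites of 1 gene are not independent, and the intervals cover counting error only.

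The share of sites around the stop codon was lower than over all protein-coding genes. Within 200 nt of it lay 18 of 84 exonic sites (21.4%, 14.0 to 31.3), in 10 genes, beside 32.4% over all protein-coding genes. Map3k3 alone gave 5 of the 18. The last exon held 54 of 84 (64.3%, 53.6 to 73.7), beside 68.8%. Exons longer than 400 nt held 78 of 84 (92.9%, 85.3 to 96.7), beside 89.9%. The 6 sites in shorter exons were in Map4k4, Map3k11, Map2k2, Map2k7 and, with 2 of them, Map2k3.

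Per DRACH motif, the exons of the 21 genes held 1607 motifs, of which 77 were listed (4.79%, 3.85 to 5.95), beside 4.67% over all protein-coding genes with a site. In the CDS, 26 of 963 motifs were listed (2.7%, 1.85 to 3.93), beside 4.59%. In the 3′ UTR 44 of 585 were (7.52%, 5.65 to 9.95), beside 5.03%, and in the 5′ UTR 7 of 59 (11.9%, 5.87 to 22.5), beside 2.39%. Around the stop codon 17 of 209 were listed (8.13%, 5.14 to 12.6), beside 13.0%. By exon length, 8.08% of 879 motifs were listed in exons longer than 400 nt (6.45 to 10.1) and 0.824% of 728 in shorter ones (0.378 to 1.79). The same shares over all protein-coding genes were 6.91% and 1.2%. m6Aboost reads the region of the transcript as an input, and its part in these shares was not tested.

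**Figure D3:**
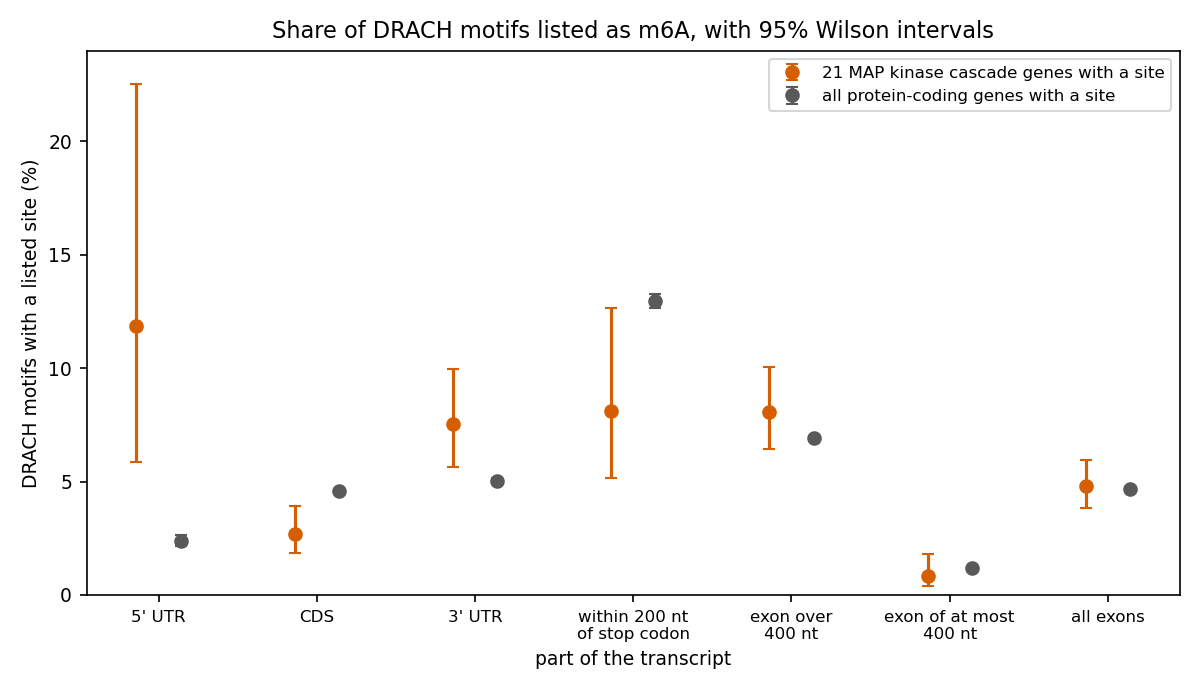
Percent of DRACH motifs with a listed site (y axis) by part of the spliced transcript (x axis), for the 21 MAP kinase cascade genes with a site and for all protein-coding genes with a site, with 95% Wilson intervals as bars. The shares are alike over all exons, while that of the cascade genes is lower in the CDS, at 2.7%, and higher in the 3′ UTR, at 7.52%.

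The number of sites in a cascade gene showed little relation to its length. Over the 21 genes with a site, Spearman's rho of the number was -0.12 with spliced length, 0.11 with CDS length and -0.25 with 3′ UTR length, given as a description over points that share 1 list. Map3k7 and Map2k4 had 3′ UTRs of 3786 and 2448 nt and 1 site each, whereas Map2k3 had 8 sites and a 3′ UTR of 964 nt. Sites per kb of spliced transcript came to 3.64 in Map2k3 and 2.61 in Map3k3, and to 1.01 over all 21 genes, beside 1.02 over all protein-coding genes with a site. The 21 genes with a site and the 25 without had median spliced lengths of 3695 and 3303 nt and medians of 70 and 67 DRACH motifs.

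The m6Aboost score runs from 0.5, the model's threshold, to 1, and measures how surely the model calls a site, not how much of the RNA is methylated. Its median over the 87 sites was 0.726, beside 0.734 over all sites in protein-coding genes. Cascade sites in the 3′ UTR had a median of 0.733 (47 sites), those in the CDS 0.716 (30 sites) and those in the 5′ UTR 0.633 (7 sites). Over all protein-coding genes these medians were 0.787, 0.70 and 0.619. A score of at least 0.9 was reached by 12 of the 87 cascade sites (13.8%, 8.07 to 22.6), beside 8.76% of all sites in protein-coding genes. Of the 12, 9 were in 3′ UTRs, 2 in the CDS of Map3k1 and Map3k10 and 1 in Map2k7 outside the chosen exons. At the other end, 11 sites scored under 0.55.

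**Figure D4:**
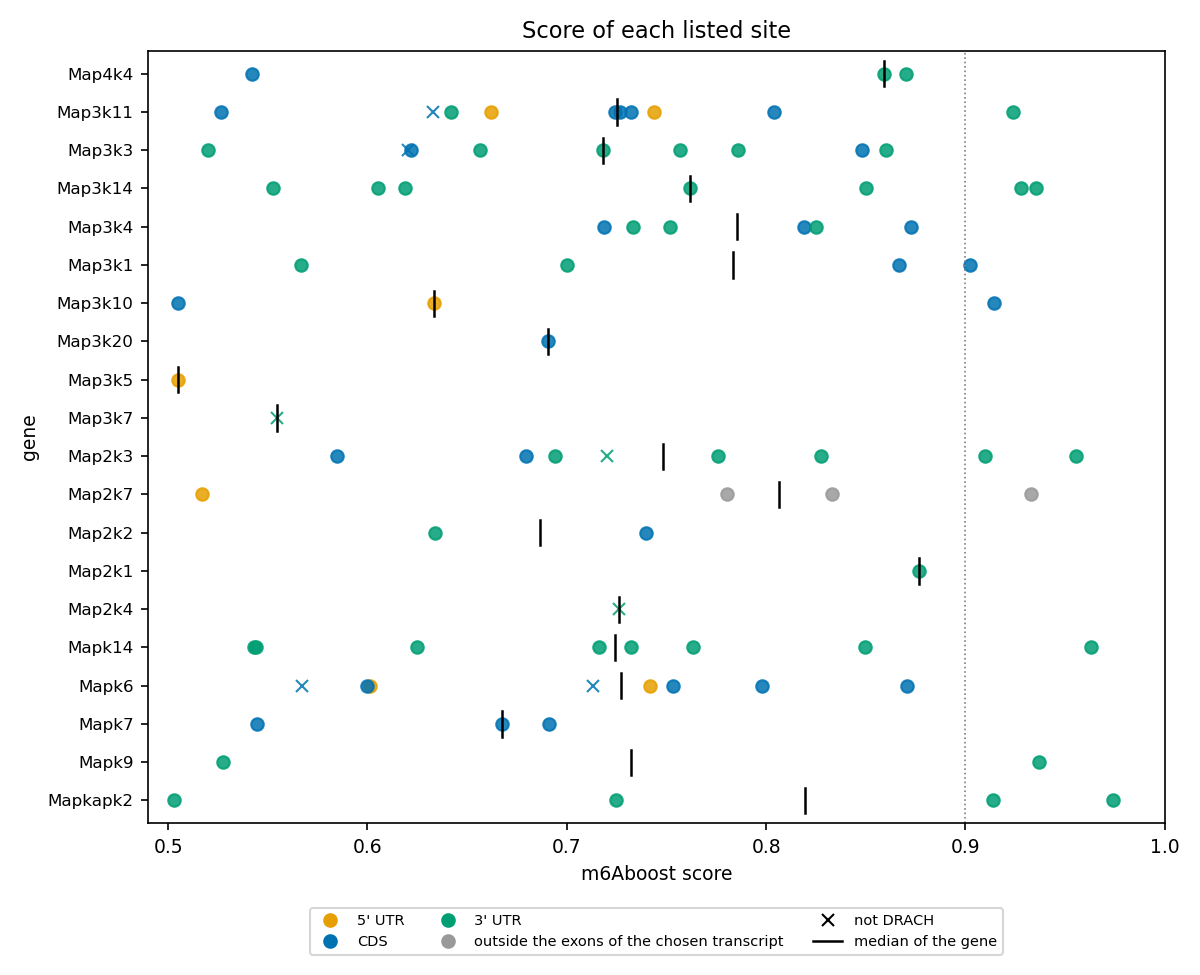
m6Aboost score (x axis) of each of 86 listed sites by gene (y axis), coloured by the part of the transcript, with crosses for sites that are not at DRACH and a black bar for the median of the gene. Scores within 1 gene differ widely, as in Mapkapk2, from 0.503 to 0.974, and no cross lies beyond the dotted line at 0.9.

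DRACH was the motif at 80 of the 87 sites (92.0%, 84.3 to 96.0), the same share as over all protein-coding genes. GGACT was found at 29 sites (33.3%, 24.3 to 43.8), beside 19.3% of all sites in protein-coding genes, and GAACT followed with 12, AGACT with 9 and GGACA with 8. The 7 sites that were not at DRACH belonged to 6 genes. GTACT was found in Map3k3, Map2k3 and Map2k4, AGACG and CAACT in Mapk6, GGACG in Map3k11 and GTATG in Map3k7. The windows below show the highest-scoring site of each of these pentamers, with scores of 0.726, 0.713, 0.633, 0.567 and 0.554 in the order given.
Map2k4, 3′ UTR, chr11:65690289-65690309, minus strand: tcatggatGTACTgtctgagc
Mapk6, CDS, chr9:75389090-75389110, minus strand: attcataaCAACTttgatatc
Map3k11, CDS, chr19:5690412-5690432, plus strand: aatgggcaGGACGaactagcc
Mapk6, CDS, chr9:75397846-75397866, minus strand: cagttaacAGACGatgtgggc
Map3k7, 3′ UTR, chr4:32019931-32019951, plus strand: acctggctGTATGtgcatgct
The site of Map3k7 was the only cascade site without a C after the A. Map2k4 and Map3k7 had no other site, so neither had a site at DRACH. In Map2k3 the A of the first site is 1 nt from an exon junction, and the 5 bases there read GAACT in the genome and AAACT in the spliced transcript.

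In the CDS, the predicted m6A fell on the second codon position at 21 of 30 sites, on the third at 7 and on the first at 2. The codon was GAC for aspartate at 17 sites in 8 genes and GAA for glutamate at 5. Next came AAC for asparagine at 3 and ACT for threonine at 2. DRACH fixes a C after the A, so the codons at such sites are limited by the motif.

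Of the 30 CDS sites, 2 lay on codons of the conserved motifs at the activation segment. These were singled out after the positions were seen. The site of Map2k2 was the A of GAC for aspartate 212, the first residue of the DFG motif. A single DFG-to-APE stretch was found in the translated CDS of 42 of the 46 genes, and in 22 of the 42 the A of the aspartate codon stood in a DRACH motif. That A was listed in 1 of the 22, Map2k2, and 10 of the 22 genes had at least 1 site in their transcript. Of all DRACH motifs in the CDS, 2.7% were listed in the cascade genes with a site and 4.59% in all protein-coding genes with a site, and 1 of 22 is no result about this codon. In Map2k1 the matching codon, for aspartate 208, is GAT, so the 5 bases are TGATT and not DRACH.

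The site of Mapk7 was the first base of ACT for threonine 219, the threonine of the threonine-X-tyrosine motif that Map2k5 phosphorylates. The motif was found once in the activation segment of 10 Mapk genes, and in 7 its threonine codon began with the A of a DRACH motif. That A was listed in 1 of the 7, Mapk7, a count too small to be set against the 2.7% of CDS motifs listed in the cascade genes. Mapk9 and Mapk14 had a DRACH motif at this threonine and sites elsewhere in the transcript. In Mapk3 and Mapk8 the threonine codon is ACG, which gives TGACG and no DRACH.

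CDS sites were also compared between related kinases. Each of the 30 sites was set against the same codon of the most similar protein of its tier, and 21 of them had an aligned codon. Of these, 14 had an A at the same base, 5 had it in a DRACH motif, and none was listed in the related gene. The 5 were in Map3k2, Map3k9, Map2k6 and, with 2 of them, Mapk4, and these genes had no listed site at all, so this comparison could not have found a shared site and says nothing on how often sites are shared. Map3k10 and Map3k11 were compared directly as well, since both are mixed-lineage kinases with sites, and their proteins were identical at 52.5% of the residues of the shorter one. Codon 130 of Map3k10 and codon 150 of Map3k11 aligned with each other, both carried GGACC, and both were listed, with scores of 0.505 and 0.527. Both scores were close to the model's threshold of 0.5. m6Aboost reads the sequence around a site, and its part in this match was not tested. This was the only pair compared directly, so it gives no rate of shared sites. In Map3k9 the aligned codon 169 carries CGACC, which is not DRACH. At the other CDS sites of both genes the aligned bases were not DRACH.

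Partners of the cascade were looked up in a list of 34 genes that encode its activators, adaptors, scaffolds and substrates. Of these, 18 had a site (52.9%, 36.7 to 68.5), with 68 sites in all, beside the 23.1% of all protein-coding genes. Tab1 and Tab2, which bind the kinase encoded by Map3k7, had 11 sites each, whereas their relative Tab3 had none and Map3k7 had 1. In Tab1, 10 of the 11 lay in the 3′ UTR, and in Tab2, 7 of the 11 lay in the CDS. Hras had 4 sites, all in the 3′ UTR and with a highest score of 0.981. No site was listed in Braf or Araf. Rps6ka1, a kinase phosphorylated by ERK, had 9 sites, of which 8 were outside the exons of its chosen transcript.

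Markers of the cell type were looked up as well. Of 9 macrophage markers 5 had sites, beside the 23.1% of all protein-coding genes, namely Cd14 with 13, Csf1r with 11, Spi1 and Fcgr1 with 6 each and Lyz2 with 2, while Adgre1, Cd68, Itgam and Mrc1 had none. None of the 9 markers of T cells, B cells and fibroblasts had a site. A site shows that the transcript was captured, whereas the lack of one shows nothing about expression, so the markers without a site do not bear on the cell type.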

How the data were processed

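RAW 264.7 cells were profiled by miCLIP2 in 3 untreated biological replicates. The authors mapped reads to GRCm38 with STAR 2.7.3a, removed duplicates with UMI-tools 1.0.0, ran the peak caller PureCLIP per replicate and kept peaks found in at least 2. The unit of the deposited list is the m6Aboost prediction score of each site, pooled over replicates by the authors; sites with a score above 0.5 are listed. This list gives no depth per site, and no test across replicates or replicate left out was possible from it.

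Sites were assigned by strand and gene span to GENCODE M21 (the authors used M23) and placed on the protein-coding transcript with the longest CDS. Motifs were read from the genome. Shares carry 95% Wilson intervals. Proteins were translated from the annotated CDS and aligned globally with BLOSUM62. Given in full were the 3 genes of each tier with most sites and every gene with a site scoring at least 0.9. The members, gene lists and rules were chosen with earlier results of these data known. Some items are not reported here, by name or in figures, but stay in all counts. Placement was tested on simulated sites. Python 3.11.15, NumPy 2.4.6, SciPy 1.17.1, pysam 0.24.0, Biopython 1.88 and matplotlib 3.10.9 were used.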

Additional observations from a re-analysis of the deposited data

How the results depend on the processing

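Of 74 alternative values, 56 stayed within their limits and 18 moved. They covered minimum scores, collapsed neighbours, overlapping genes left out, names that only begin like a member, other transcripts, windows and motifs. Keeping only scores of at least 0.9 left 9 genes and 12 sites, with a median of 1 site per gene, a median score of 0.930 and 0.329 sites per kb. DRACH then made up 100% of sites, the CDS 16.7% and the 3′ UTR 75.0%. The last exon held 81.8% of exonic sites, and 36.4% had a neighbour within 100 nt. A minimum of 0.7 left 52 sites with a median of 0.812 and 44.9% with a neighbour. Higher minimums leave fewer sites by construction. RRACH in place of DRACH gave 83.9%, and 0% of positions were at DRACH when starts were read as 1-based. The stop codon window held 11.9% of sites at 100 nt and 41.7% at 400 nt, and 38.1% had a neighbour within 50 nt. Narrower windows hold fewer sites and wider ones more by construction. No share over all protein-coding genes was set beside these windows. No paired analysis was possible because the deposited list is pooled over the replicates. Without read counts, neither depth nor expression could be set against the number of sites in a gene.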

Other observations

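Genes whose names only begin like those of the cascade kinases were left out above. Among these 6, Mapk1ip1l had 5 listed sites and Mapk8ip3, a JNK scaffold, had 2, both outside the exons of its chosen transcript, while Map3k7cl, Mapk1ip1, Mapk8ip1 and Mapk8ip2 had none.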
